A study of Mus musculus with 2 samples.

Results

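Mitochondrial ribosomal protein genes were taken from the deposited count table as every entry whose symbol is Mrpl or Mrps followed by digits, with entries marked -ps left out. The rule found 78 genes among 21983 entries, of which 49 carry names of the large ribosomal subunit and 29 names of the small subunit. They were chosen by name and not by any measured value. The cells were 14837, a mouse line of pancreatic ductal adenocarcinoma (PDAC), the common cancer of the pancreas, with C57BL/6 given as the strain. Both groups were cultured in DMEM that held 10% FBS and penicillin at 100 U/ml, and then spent 48 h in conditioned medium, which carries what other cells have released. The source of that medium was cancer-associated fibroblasts (CAFs), connective tissue cells of the tumour, in 1 group and 14837 cells in the other, with 1 library per medium. Only the CAF-medium library could be tied by name to a column of values, so the media were not compared here. All values below are levels in that 1 library of 1 line, without replicates and without a test.

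The library held 21269197 counts, and 8056 entries were listed at 0. Levels are given as counts per 1000000 counts of the library (CPM) with exact Poisson 95% intervals, which cover counting error only. Wherever genes are set against each other, the scale is CPM per kilobase of the principal transcript, since a longer transcript can collect more counts. Among the 75 of these genes with at least 10 counts, CPM followed that length only weakly (Spearman's rho 0.18). Of 8 markers of pancreatic ductal epithelium, 7 had at least 10 counts and the 8 summed to 4032 CPM, with Epcam, a defining epithelial marker, at 2 counts. Of 10 fibroblast markers 3 had at least 10 counts, and the list summed to 37.0 CPM, of which Pdgfra, a growth factor receptor gene, held 34.2 CPM (727 counts). Col1a2, Col3a1, Dcn, Lum and Thy1 were listed at 0. None of 6 leukocyte or 4 endothelial markers reached 10 counts, and 1 of 5 acinar markers had exactly 10. In bulk RNA, fewer cells of a type and less RNA per cell cannot be told apart.

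Mitochondria keep a ribosome of their own, which translates the few proteins encoded by the mitochondrial genome, all of them parts of the respiratory chain and ATP synthase. Its ribosomal RNAs come from that genome, whereas all of its proteins are encoded in the nucleus, made in the cytosol and imported. Compared with the bacterial ribosome it descends from, it has less RNA and more protein, so that bacterial-type proteins stand beside many that bacteria lack.

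Nearly all of these genes were detected. Of 78 genes, 75 had at least 10 counts (96.2%), against 52.6% of all entries, and the other 3 were listed at 0. The median member stood at 43.9 CPM, with quartiles of 26.3 and 61.3 CPM. Of the members, 46 (59.0%) lay above 37.9 CPM, the median of all entries with at least 10 counts, where 26.3% of all entries lay above it. Per kilobase, 58 members (74.4%) lay above the corresponding median of 12.4, again against 26.3% of entries. The members' own median was 30.6 CPM per kilobase. In CPM, 54 of the 78 genes (69.2%) were within 2-fold of the members' median, and per kilobase 40 (51.3%). Of all entries with at least 10 counts, 34.7% and 36.3% were within 2-fold of their own medians, beside 72.0% and 50.7% of the 75 members that reached 10 counts. The highest member had 65.1 times the counts of the lowest above 0, and 93.1 was the same ratio per kilobase. Together the 78 genes held 79928 counts, or 0.376% of the library. Against entries with at least 100 counts, the median of the 73 members that reached 100 counts was the lower of the medians, at a log2 ratio of -0.15 in CPM, so the side of the median on which these genes fell depends on which entries are counted.

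**Figure D1:**
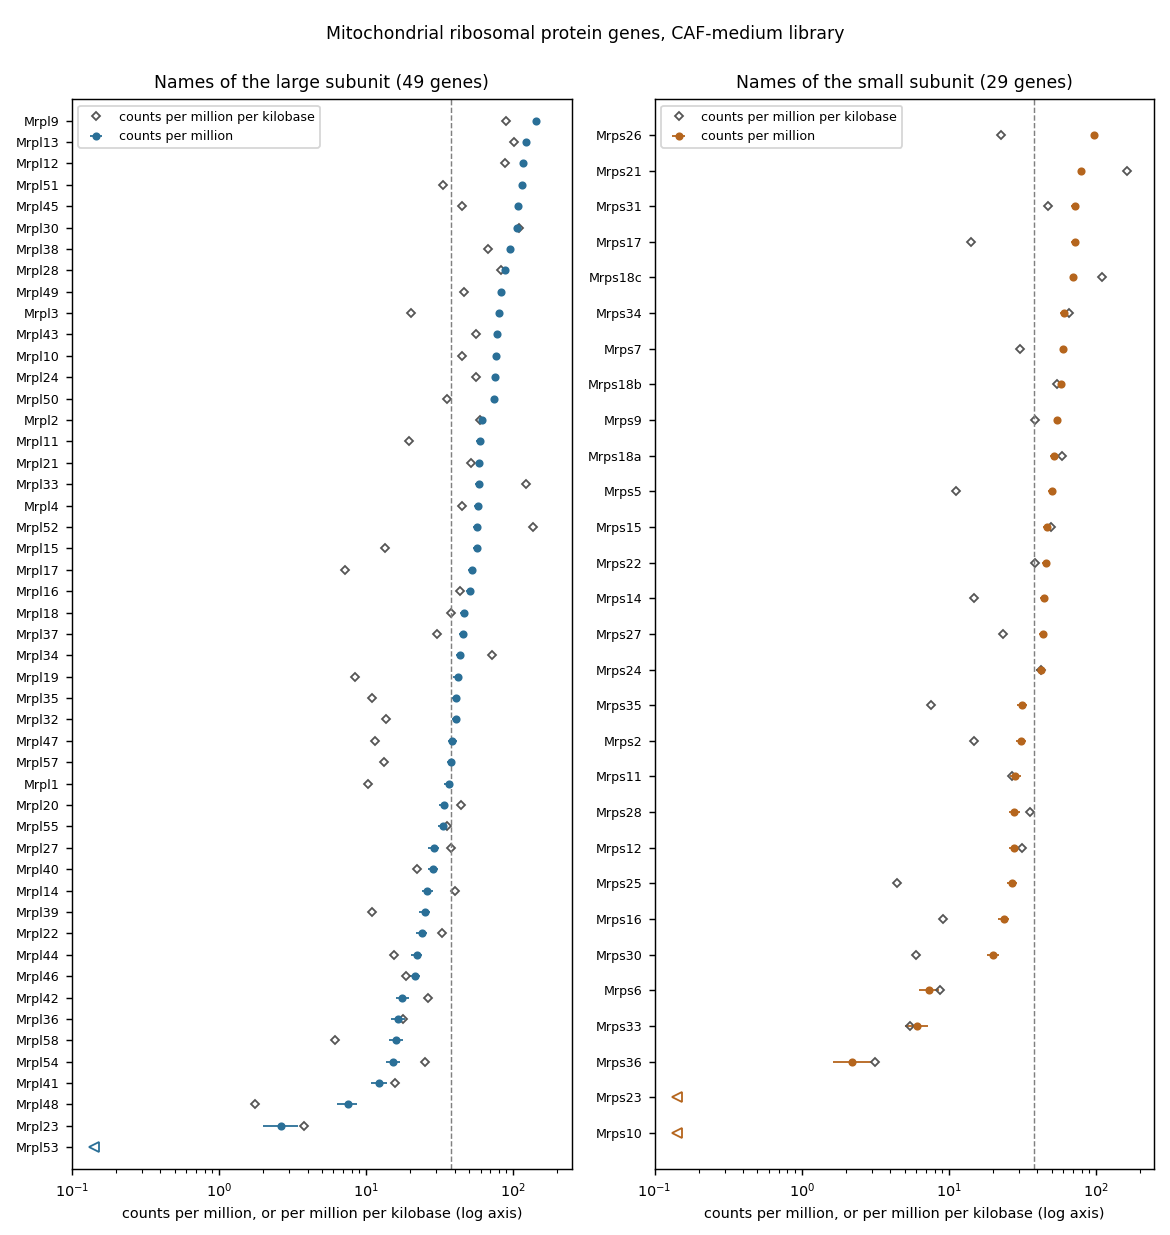
Level of each mitochondrial ribosomal protein gene in the CAF-medium library, with large-subunit names on the left and small-subunit names on the right, on a log axis. Filled points are CPM with exact Poisson 95% intervals, open diamonds are CPM per kilobase of principal transcript, triangles are genes listed at 0 drawn at the limit of 3 counts (0.141 CPM), and the dashed line is the median entry at 37.9 CPM. Most filled points lie between 10 and 100 CPM, and the diamonds are spread more widely.

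The promoters of these genes were read because genes of 1 complex can share promoter letters. RefSeq promoter windows of 300 bases, 250 before and 50 after the start of the gene, were at hand for 69 of the 78 genes (GRCm38.p6). The letters searched on both strands were CGCATGCG for NRF1, a regulator of nuclear genes for mitochondria, CCGGAAG for the ETS family, which includes the mitochondrial regulator GABP, AAGATGGC for YY1, and the TATA box, searched as TATAAA. None of these words contains another, and CGCATGCG reads the same on either strand. The 6 windows below, cut to 100 bases before and 30 after the start, were picked after levels and matches had been seen. Mrpl9 is the gene with the most counts, Mrpl32 has CGCATGCG at more than 1 place, Mrpl51 starts next to another gene, Mrps18a has ETS and YY1 letters, and Mrps23 and Mrpl53 were listed at 0. They lie at chr3:94443236-94443365 (plus strand), chr13:14613008-14613137 (minus), chr6:125192100-125192229 (plus), chr17:46110904-46111033 (plus), chr11:88204288-88204417 (plus) and chr6:83109008-83109137 (plus), in the order Mrpl9, Mrpl32, Mrpl51, Mrps18a, Mrps23 and Mrpl53. Capitals mark the matched letters.
Mrpl9: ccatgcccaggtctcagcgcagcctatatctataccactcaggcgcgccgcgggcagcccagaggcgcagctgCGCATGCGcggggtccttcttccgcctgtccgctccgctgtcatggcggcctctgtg
Mrpl32: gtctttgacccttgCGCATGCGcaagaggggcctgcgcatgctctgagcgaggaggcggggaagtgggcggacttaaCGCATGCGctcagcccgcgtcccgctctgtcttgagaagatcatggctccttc
Mrpl51: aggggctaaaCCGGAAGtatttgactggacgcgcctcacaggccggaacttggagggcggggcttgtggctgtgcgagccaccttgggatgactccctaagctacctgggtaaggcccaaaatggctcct
Mrps18a: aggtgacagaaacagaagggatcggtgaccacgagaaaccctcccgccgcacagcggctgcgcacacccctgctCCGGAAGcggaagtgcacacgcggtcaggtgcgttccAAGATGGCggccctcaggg
Mrps23: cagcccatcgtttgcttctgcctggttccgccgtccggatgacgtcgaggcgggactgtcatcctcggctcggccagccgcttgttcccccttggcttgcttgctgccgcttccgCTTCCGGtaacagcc
Mrpl53: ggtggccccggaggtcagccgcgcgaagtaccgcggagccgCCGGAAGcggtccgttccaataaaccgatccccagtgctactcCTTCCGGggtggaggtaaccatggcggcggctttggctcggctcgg

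Letters for NRF1, ETS and YY1 were found in a larger share of these promoters than of all promoters in the table. Of 69 members, 26 (37.7%) held the ETS word, against 9.93% of all 27025 genes with a promoter, 21.1% of the 9132 of them with at least 10 counts and 41.4% of 58 cytosolic ribosomal protein genes. The YY1 word stood in 12 members (17.4%), against 3.19% of all genes, 5.58% of genes with at least 10 counts and 10.3% of cytosolic ribosomal protein genes. Fewer members held the NRF1 word. It was found in 7 of them (10.1%), 6 of which are large-subunit genes, against 2.07%, 4.5% and 5.17% in the same 3 sets. At least 1 of these 3 words was present in 38 members (55.1%), against 14.1% of all genes, 28.6% of genes with at least 10 counts and 56.9% of cytosolic ribosomal protein genes, and 7 members held at least 2 of them. TATAAA went the other way, with 5 members (7.25%) against 15.7% of all genes, but 8.44% of genes with at least 10 counts. A pair of further words was counted after the data had been seen, which makes 6 in all. CCAAT stood in 39.1% of members and 41.1% of all genes, and the GC box GGGCGG in 49.3% of members, 38.2% of all genes and 69.7% of genes with at least 10 counts.

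High and low genes were found both with and without the words. The 38 members with an NRF1, ETS or YY1 word had a median of 31.1 CPM per kilobase and the 31 without had 19.5. Taken singly, the YY1 word went with the lower median, 28.7 against 33.0 CPM per kilobase. Mrps23 and Mrpl53 carry the ETS word in the windows shown above, Mrpl53 on both strands, and were listed at 0. Mrpl12, Mrpl30 and Mrpl45, each above 100 CPM, held none of the 3 words. A match of letters is a description of the window and not of binding.

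**Figure D2:**
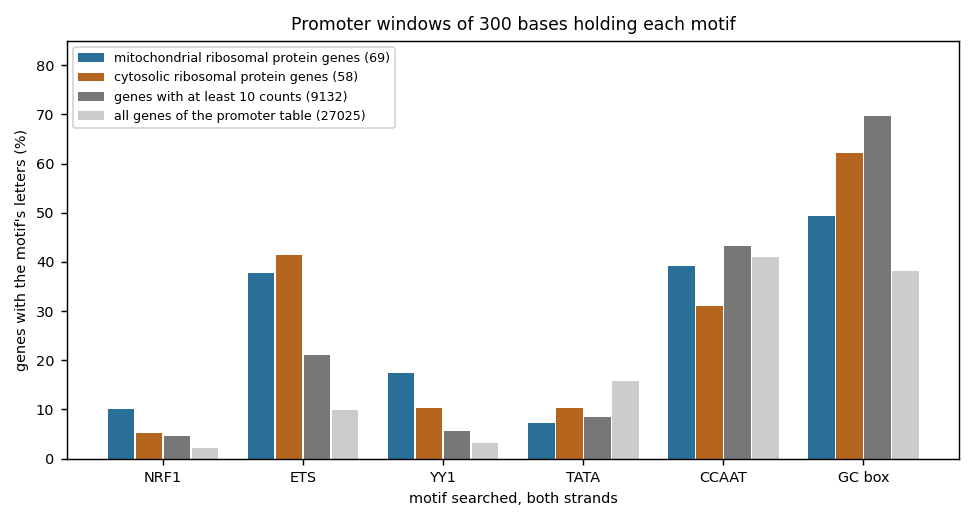
Share of genes, in percent, whose 300-base promoter window holds the letters of each of 6 motifs on either strand, for mitochondrial ribosomal protein genes (69), cytosolic ribosomal protein genes (58), genes with at least 10 counts (9132) and all genes of the promoter table (27025). The bars of the mitochondrial set stand above those of all genes for NRF1, ETS, YY1 and the GC box, and below them for TATA and CCAAT.

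Among large-subunit genes the level ran from 144 CPM down to 0, with a median of 45.8 CPM and 33.5 CPM per kilobase. Mrpl9 (chr3:94443318-94451130, plus strand), whose product is the counterpart of the bacterial protein L9 at the foot of the L1 stalk, had 3059 counts, or 144 CPM (139 to 149). Mrpl13 (chr15:55534094-55557748, minus), the counterpart of L13, an early-binding protein of the bacterial large subunit, followed at 2620 counts and 123 CPM (118 to 128). Mrpl12 (chr11:120484613-120489065, plus) reached 116 CPM (112 to 121). Its protein forms the flexible stalk that calls translation factors to the ribosome. Mrpl51, which has no bacterial counterpart, stood at 115 CPM (110.4 to 119) and Mrpl45, whose product holds the ribosome to the inner membrane near the exit of the tunnel, at 108 CPM (104 to 113). Per kilobase the order changed. Mrpl52, another protein bacteria lack, led the large subunit at 136 CPM per kilobase with a transcript of only 418 bases, followed by Mrpl33 at 123, Mrpl30 at 109 and Mrpl13 at 101. Mrpl9 was at 89.2 and Mrpl51, with 3427 bases, at 33.5 CPM per kilobase. The length matters here, since for 15 members the longest transcript is more than 1.5 times the principal one. Divided by the longest transcript, Mrpl52 came to 66.5, Mrpl30 to 60.2, Mrpl33 to 21.4 and Mrpl13 to 20.5 CPM per kilobase, while Mrpl9 stayed at 86.8.

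By the known place of the protein, all 3 genes of the L7/L12 stalk and all 4 of the centre that joins amino acids lay above the median entry per kilobase. So did 4 of 5 in the central protuberance, 5 of 8 in the exit tunnel and 4 of 5 small bacterial-type proteins. The share over all members was 74.4%, and Mrpl1 of the L1 stalk lay below the median entry. With so few genes in each place, these shares do not set the places apart. The places were assigned from general knowledge of the ribosome after levels had been seen. The 3 genes of the L7/L12 stalk and its base, Mrpl10, Mrpl11 and Mrpl12, stood at 44.6, 19.5 and 88.5 CPM per kilobase. Around the peptidyl transferase centre, where peptide bonds are made, Mrpl2 stood at 59.7, Mrpl16 at 43.5, Mrpl27 at 38.1 and Mrpl3 at 20.3 CPM per kilobase. In the central protuberance, the crest that touches the small subunit, Mrpl38 was highest at 67.4 CPM per kilobase, then Mrpl18 at 37.8, Mrpl40 at 22.3 and Mrpl46 at 18.8. Mrpl48, of the same crest, was lowest at 1.75 CPM per kilobase, 159 counts over a transcript of 4285 bases.

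Per kilobase, genes of the exit tunnel and its rim, through which the new chain leaves, fell into a higher and a lower set of 4. Mrpl24 stood at 56.3, Mrpl4 at 44.8, Mrpl45 at 44.6 and Mrpl22 at 33.0 CPM per kilobase. Mrpl44 (15.5), Mrpl47 (11.5), Mrpl17 (7.17) and Mrpl23 (3.81 CPM per kilobase) were lower, although Mrpl17 had 52.3 CPM over a transcript of 7300 bases. In CPM the sets were not apart, since Mrpl22 had 23.8 CPM, below Mrpl17 and Mrpl47 (38.7 CPM). A processed pseudogene shares 28.6% of the windows of Mrpl22. The small bacterial-type proteins, which bind deep in ribosomal RNA, also differed in level per kilobase. Mrpl33 and Mrpl34 stood at 123 and 71.9 CPM per kilobase, and Mrpl36, Mrpl32 and Mrpl35 at 17.9, 13.6 and 11.0. Of these 5, Mrpl32 is cut by a protease of the inner membrane before it joins the ribosome. Mrpl1, of the L1 stalk that moves spent tRNA outward, was at 36.5 CPM and 10.3 CPM per kilobase. Mrpl58, a hydrolase that frees stalled chains and sits in the ribosome, had 340 counts, or 15.99 CPM (14.3 to 17.8).

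Further large-subunit genes were given no place here and are set out by bacterial counterpart. Of those with a bacterial counterpart, Mrpl28 stood at 82.4, Mrpl21 at 51.6, Mrpl20 at 44.2 and Mrpl14 at 40.4 CPM per kilobase, and Mrpl15 and Mrpl19 were lower at 13.4 and 8.4. Exons of Gcfc2 cover 36% of the exonic bases of Mrpl19. Of those without one, Mrpl43 had 56.0, Mrpl49 46.7, Mrpl55 and Mrpl50 both 35.3 and Mrpl37 30.6 CPM per kilobase, all at or near the members' median or above it. Mrpl42 (26.5), Mrpl54 (25.3), Mrpl41 (15.8), Mrpl57 (13.1), Mrpl39 (10.9) and Mrpl58 (6.16 CPM per kilobase) lay below that median. Both classes thus held high and low genes.

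Small-subunit genes had a median of 43.5 CPM, near that of the large subunit, and 23.5 CPM per kilobase. Mrps26 (chr2:130563742-130568695, plus), a protein of the body that bacteria lack, had the most counts at 2060, or 96.8 CPM (92.7 to 101). Mrps21 (chr3:95862634-95871519, minus), the counterpart of bacterial S21 on the platform, stood at 79.3 CPM (75.5 to 83.2) and, with 488 bases, was the highest of all 78 genes at 162 CPM per kilobase. A processed pseudogene shares 11.1% of its sequence windows. Mrps17 and Mrps31 each had 1526 counts, or 71.8 CPM (68.2 to 75.4), yet per kilobase Mrps31 stood at 47.4 and Mrps17 at 14.2, since the transcript of Mrps17 is 5061 bases long. Mrps18c followed at 70.2 CPM (66.7 to 73.8).

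Near the decoding site, where codons are read, Mrps12 stood at 31.5 CPM per kilobase and Mrps5 at 11.1. In the head, which holds tRNA and messenger, Mrps31 led at 47.4, with Mrps24 at 42.3, Mrps9 at 38.6 and Mrps7 at 30.6 CPM per kilobase. Mrps14 (14.8), Mrps35 (7.6) and Mrps33 (5.48 CPM per kilobase) were lower, and Mrps10 was listed at 0. On the platform Mrps21 and Mrps18c stood at 162 and 110.0 CPM per kilobase, Mrps11 at 26.9 and Mrps6 at 8.67. In the body, Mrps34 at 66.0 and Mrps15 at 49.5 were the highest per kilobase, then Mrps22 at 38.4, Mrps27 at 23.5, Mrps26 at 22.6, Mrps17 at 14.2, Mrps16 at 9.16 and Mrps25 at 4.44. Outside these places, Mrps28, related to part of bacterial S1, stood at 35.7 and Mrps2, the counterpart of S2, at 14.8 CPM per kilobase. Exons of other genes cover 77.8% of the exonic bases of Mrps34 and 69.8% of those of Mrps25, so their counts are uncertain.

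The Mrps18 family has 3 genes for related proteins that take different places, and each had at least 1107 counts. Mrps18c, the form placed on the platform like bacterial S18, had 1493 counts and 110.0 CPM per kilobase. Mrps18a, whose protein sits in the large subunit despite its name, had 1107 counts, 52.0 CPM (49.0 to 55.2) and 58.9 CPM per kilobase. Mrps18b, which has a place of its own in the small subunit, had 1240 counts, 58.3 CPM (55.1 to 61.6) and 54.0 CPM per kilobase. Per kilobase Mrps18c had 2.04 times the level of Mrps18b (exact binomial 95% interval 1.89 to 2.2) and 1.87 times that of Mrps18a (1.73 to 2.02), beyond counting error in both. The size of both ratios depends on the length used. By longest transcript and by all exons they were 1.58 and 2.34 against Mrps18b, and 3.65 and 4.63 against Mrps18a. Mrps18b and Mrps18a were at a ratio of 0.918 (0.846 to 0.996) by principal transcript, but at 2.3 by longest transcript and 1.98 by all exons, so their order depends on the length used. Of the windows of Mrps18b, 28.1% are shared with a pseudogene, and of those of Mrps18c 6.25% are shared with other genes. Exons of other genes cover 30.5% of the exonic bases of Mrps18b and, on the same strand, 23.2% of those of Mrps18c.

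Names and places disagree for further genes. Mrps30 also belongs to the large subunit by its place, and stood at 424 counts, 19.9 CPM (18.1 to 21.9) and 6.01 CPM per kilobase. Mrps36 is now known as a component of the 2-oxoglutarate dehydrogenase complex and not of the ribosome. It had 47 counts, or 2.21 CPM (1.62 to 2.94), the lowest level in CPM of any member above 0.

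By counts, 8 members stood below 10 CPM. Mrpl23 (chr7:142532686-142540747, plus), a protein at the rim of the tunnel exit, had 56 counts, or 2.63 CPM (1.99 to 3.42). In the small subunit Mrps33 had 129 counts at 6.07 CPM (5.06 to 7.21) and Mrps6 had 156 counts at 7.33 CPM (6.23 to 8.58). These genes, Mrps36, Mrpl48 at 7.48 CPM (6.36 to 8.73) and the 3 genes at 0 made up these 8, where 6 members exceeded 100 CPM. Per kilobase they did not form a set apart, since Mrps25, Mrps30, Mrpl58, Mrpl17, Mrps35 and Mrpl19 were all below the 8.67 of Mrps6. Mrpl41 and Mrpl54, the next large-subunit genes, had 12.2 CPM (10.8 to 13.8) and 15.3 CPM (13.7 to 17.0). Of the low genes, Mrps36 has 27.5% and Mrps33 18.2% of its sequence windows in common with processed pseudogenes, and 19.9% of the exonic bases of Mrps6 lie in exons of other genes.

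Mrps10, Mrps23 and Mrpl53 were listed at 0, which allows up to 3 counts, or 0.141 CPM, for counting error alone. Mrps10 (chr17:47368887-47381417, plus) encodes the counterpart of bacterial S10 in the head, and Mrps23 (chr11:88204388-88211507, plus) and Mrpl53 (chr6:83109040-83109939, plus) encode proteins that bacteria lack. For Mrpl53, 88.0% of exonic bases lie within exons of other genes, among them the gene model Gm42688 on the same strand. No exons of other genes overlap Mrps10 or Mrps23, and 1.59% and 0 of their windows are shared. A gene listed at 0 is not described here as unexpressed.

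Per kilobase, members that share sequence with other genes had the lower median level, and members that overlap other genes the higher one. The 8 members with at least 10% of windows shared had a median of 22.1 CPM per kilobase and the other 70 had 30.6. Of the former 4 and of the latter 54 lay above the median entry per kilobase. The 18 members with at least 10% of exonic bases in exons of other genes had a median of 39.1 CPM per kilobase, against 26.7 for the other 60. Of these 18 members 13, and of those 60 members 45, lay above the median entry per kilobase, so that share was not higher with overlap. In CPM the medians were close, at 44.8 with overlap and 43.9 without. The part of shared reads in these levels was not tested. Over the 75 genes with at least 10 counts, all from 1 library, CPM followed principal length weakly (Spearman's rho 0.18). It did not follow GC content of the transcript (rho -0.014).

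In order of CPM per kilobase, 61 of 74 pairs of neighbours were not apart beyond counting error. Within the large subunit this held for 30 of 47 pairs and within the small subunit for 10 of 26. The exact order is thus resolved only in part even before any spread between cultures. The 10 highest genes per kilobase comprised 8 of the large and 2 of the small subunit, beside 49 and 29 of all 78 genes. Of these 10, 5 were also among the 10 highest by CPM. Over all 78 genes the orders by CPM and per kilobase had a Spearman's rho of 0.72.

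Proteins with a bacterial counterpart, taken by number as Mrpl1 to Mrpl36 and Mrps2 to Mrps21, had the higher median level. Their 44 genes had a median of 38.0 CPM per kilobase, with 79.5% above the median entry, and the 34 others had 23.1, with 67.6% above it. The difference in medians was seen within the large subunit, at 41.9 against 25.3 CPM per kilobase, and within the small subunit, at 28.8 against 22.6. In CPM the log2 ratio of the class medians was 0.66. It was 0.48 with genes moved between the classes by known homology and 0.25 per kilobase of all exons. Genes are not replicates, and no test was made. The large over small ratio of medians was 0.07 on the log2 scale in CPM, 0.51 per kilobase of principal transcript and -0.02 per kilobase of longest transcript, so the direction depends on the length used.

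Other proteins of the mitochondrial ribosome and its partners were measured in the same library. Of 7 listed symbols for ribosomal proteins outside the naming rule, 5 were in the table. The others, Ict1 and Mrp63, are older names of Mrpl58 and Mrpl57, which are among the 78. All 5 lay above the median entry per kilobase, with a median of 40.7 CPM per kilobase. The GTP-binding small-subunit protein Dap3 stood at 168 CPM (163 to 174), more counts than any of the 78. Ptcd3, which helps messenger enter, had 105 CPM (101 to 110.0) and Gadd45gip1, a large-subunit protein, 96.7 CPM (92.5 to 101). Per kilobase these 3 genes were at 35.3, 40.7 and 38.8, near the members' median. The lists were chosen by function with earlier results of these data known.

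Genes that serve the ribosome had lower medians per kilobase than its proteins. The 13 translation factors had a median of 11.9 CPM per kilobase, and 38.5% lay above the median entry. The elongation factor Gfm1 (84.0 CPM), the initiation factor Mtif2 (50.8 CPM) and the membrane insertase Oxa1l (47.5 CPM) had the most counts, at 20.6, 18.5 and 18.7 CPM per kilobase. Tufm, the factor that brings tRNA to the ribosome, was at 12.6 CPM per kilobase, with 65.1% of windows shared. Of 25 listed assembly symbols 24 were in the table, and the other, Gtpbp5, is an older name of Mtg2, which is among the 24. Their median was 9.15 CPM per kilobase, with 41.7% above the median entry. The helicase Dhx30 (99.7 CPM) and the RNA-modifying enzymes Trub2 (55.0 CPM) and Rpusd4 (49.5 CPM) led by counts, and Mpv17l2 was listed at 0. For mitochondrial transcription and transcript handling, 13 of 14 listed genes had a median of 15.8 CPM per kilobase, with 76.9% above the median entry. In CPM, the last list's median of 48.8 was above the members' 43.9. Lrpprc, which keeps mitochondrial messengers stable, stood at 120.0 CPM, Hsd17b10, a part of the tRNA-cutting enzyme, at 113 CPM and Grsf1, which binds RNA in mitochondrial granules, at 113 CPM. All genes named in this paragraph except Hsd17b10 and Grsf1 lay below the members' median per kilobase.

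Cytosolic ribosomal proteins, made for the other ribosome of the cell, were higher and far more spread out. The 79 genes had a median of 165 CPM per kilobase, 5.39 times the members' median. Their upper quartile was 16 times the lower per kilobase, where that ratio was 3.96 for the mitochondrial set. Of these 79 genes, 62 have at least 10% of windows shared with other genes, against 8 of the 78. The part of shared reads in the wider spread was not tested.

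**Figure D3:**
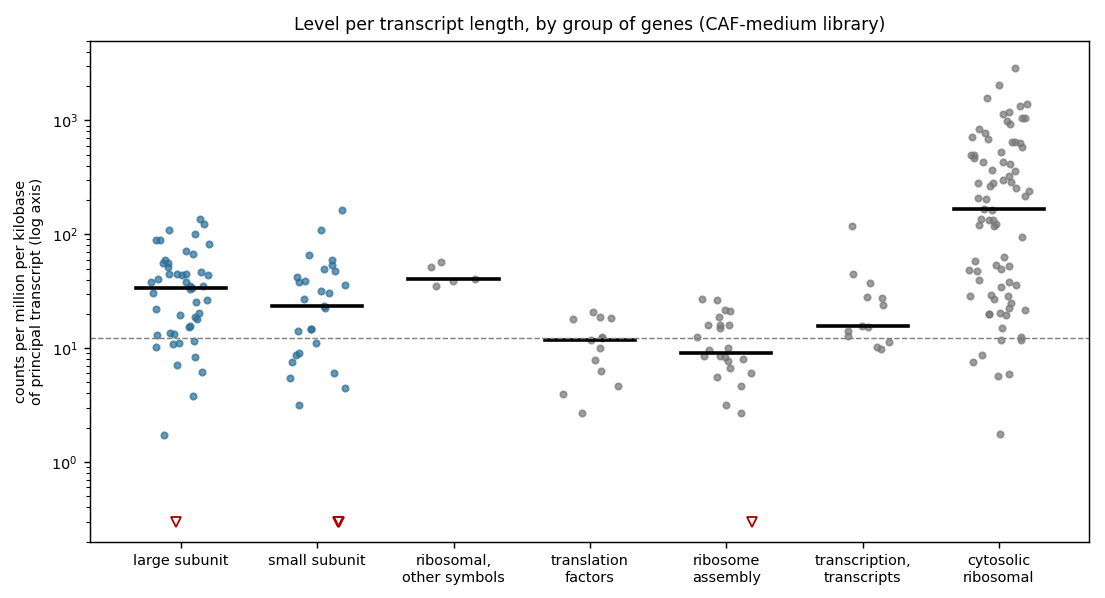
Level per transcript length, in CPM per kilobase of principal transcript on a log axis, for the 78 mitochondrial ribosomal protein genes by subunit (blue), 4 lists of related mitochondrial genes and 79 cytosolic ribosomal protein genes (grey). Each point is a gene with a small sideways offset, black bars are medians, the dashed line is the median entry at 12.4, and red triangles near the foot are genes listed at 0, which have no place on a log axis. The medians of both subunits, 33.5 and 23.5, lie above those of translation factors (11.9) and assembly genes (9.15) and below that of cytosolic ribosomal proteins.

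The messengers this ribosome translates were unevenly listed. The 13 protein genes of the mitochondrial genome summed to 1.09% of counts. Of these, 7 had over 3000 counts, led by mt-Co1 of cytochrome oxidase at 3613 CPM per kilobase, and 6 had under 300 counts, marks that were set after the values were seen. mt-Co2, of the same oxidase, had 198 counts, or 13.6 CPM per kilobase. mt-Nd4l had 10 counts and mt-Nd4 16557, although both lie on 1 messenger, and mt-Atp8 was listed at 0 beside 114 counts of mt-Atp6, likewise on 1 messenger. Levels in this table can thus differ between genes that share a transcript, and the rule for counting reads over neighbouring genes was not given in the sources used here. Ribosomal RNA genes of the mitochondrial genome, mt-Rnr1 and mt-Rnr2, were not analysed here.

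Many of these genes start back to back with another gene. A head-to-head neighbour, meaning a protein-coding gene on the other strand whose start lies within 1000 bases upstream or overlaps by at most 200, was found for 23 of 78 members (29.5%). The share was 15.2% of cytosolic ribosomal protein genes, 12.7% of protein-coding entries with at least 10 counts and 7.91% of all protein-coding entries. It was 32.7% in the large and 24.1% in the small subunit. With a limit of 500 bases the shares were 28.2% for the members, 15.2%, 11.8% and 7.29%. With overlaps counted as negative, the median gap between starts was 66 bases, and in 5 pairs the genes overlapped at their starts. These comparisons were chosen after levels had been seen, and no test was made.

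By CPM the member was the higher gene of the pair in 17 of 23 cases. The same share was not computed for head-to-head pairs of other genes. Per kilobase of principal transcript, the only length used for the pairs, the member was the higher gene in 19 of 23 cases. The exceptions were Mrpl49 beside Fau, which encodes a cytosolic ribosomal protein (46.7 against 57.8 CPM per kilobase), Mrps18b beside Ppp1r10 (54.0 against 62.9), Mrpl32 beside the proteasome gene Psma2 (13.6 against 39.8) and Mrpl36 beside Ndufs6 of respiratory complex I (17.9 against 60.7). By the GENCODE starts, Psma2 begins 75 bases from Mrpl32, and Ncapd2, a condensin gene, 100 bases from Mrpl51. Those starts of Mrpl32 (chr13:14608184-14613165, minus strand) and Mrpl51 (chr6:125191801-125196269, plus strand) differ from the RefSeq starts on which the windows printed above are set. At the latter pair both genes lay above the median entry, at 33.5 CPM per kilobase for Mrpl51 and 23.5 for Ncapd2.

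Other pairs joined a member to a gene of a related or quite different task. Mrps12 starts 172 bases from Sars2, which charges mitochondrial tRNA with serine, and stood at 31.5 against 2.79 CPM per kilobase. Mrps27 starts 81 bases from Ptcd2, another mitochondrial RNA-binding protein gene, at 23.5 against 11.4. Mrpl27 and Mrps34 each adjoin a gene for a partner of the nuclease Mus81, Eme1 and Eme2, at 38.1 against 3.06 and 66.0 against 7.7 CPM per kilobase. Lrrc46, beside Mrpl10, was listed at 0. Of the 23 members with such a neighbour, 95.7% lay above the median entry per kilobase, against 65.5% of the 55 without. The medians were 31.5 and 26.5 CPM per kilobase. In CPM the shares above the median entry were 65.2% and 56.4%. Of all 21824 protein-coding entries 11506 had at least 10 counts, and of the 1727 with such a neighbour 1459 had. The share above the median entry was not computed for those 1727.

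**Figure D4:**
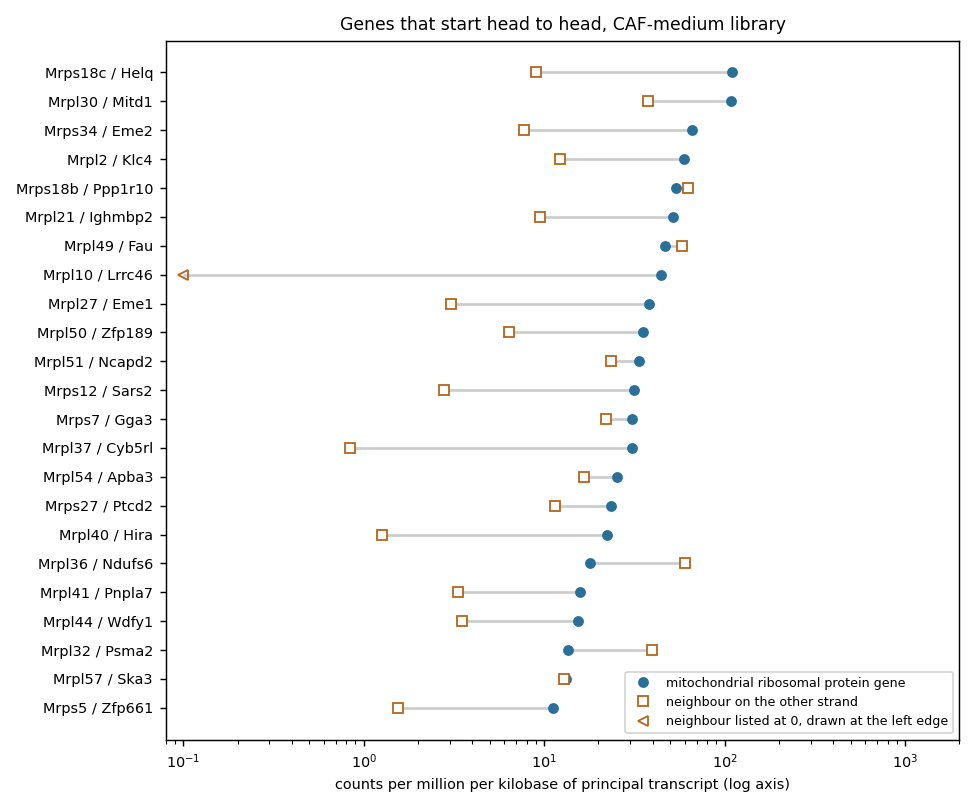
Levels of the 23 mitochondrial ribosomal protein genes that start head to head with another gene (filled circles) and of that neighbour (open squares), in CPM per kilobase of principal transcript on a log axis, ordered by the member's level. The triangle at the left edge is Lrrc46, listed at 0, and grey lines join a pair. In 19 of 23 pairs the filled circle lies to the right.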

How the data were processed

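RNA was sequenced from 14837 cells, 1 library per conditioned medium, from 2 ug of total RNA per the labels' protocols. The submitters' processing notes name the mouse build mm10 and the tools StringTie and HISAT2 (2.1.0), without their roles. The counting of reads, the strand setting and the annotation were not given in the sources used here. Whole-number counts per gene symbol were deposited by the authors. Of 2 value columns, 1 matched the labels of neither library. Its values were seen when the table was first opened and entered no computation, so the planned comparison of media was not made.

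Counts were divided by the library total and multiplied by 1000000. Intervals are exact Poisson, and for ratios exact binomial, at 95%. They cover counting error only. They were tried on simulated Poisson counts, which cannot show whether the deposited counts behave in that way. For a count of 0 the limit given is 3 counts, which is below the upper end of the exact interval. Date-named entries used more than once (4) were left out of gene sets, not of the total. Lengths, coordinates and exon overlaps come from GENCODE M21 (GRCm38, equal to mm10), to which 21900 symbols (99.6%) matched. Shared windows are 64-base stretches, every 16 bases along the longest transcript, found exactly in transcripts of other genes. The principal transcript is the longest one marked APPRIS principal, a scale chosen after seeing the data. Full values are given for the 5 highest and 5 lowest genes of each subunit by CPM, the genes at 0, the Mrps18 family and the 3 highest of each list. Members and lists were chosen with earlier results of these data known. Python 3.11.15, numpy 2.4.6, pandas 2.3.3, scipy 1.17.1 and matplotlib 3.10.9 were used. Alternatives were other totals, minimum counts, lengths and classes of genes. Protein features and identity were not analysed here.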

Additional observations from a re-analysis of the deposited data

How the results depend on the processing

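With 1 library there is no spread between cultures, and depth limits genes under 100 counts most. Of entries with 10 to 99 counts (1789), 36% held multiples of 3, against 33.3% of the whole numbers in that range, so counts may not be plain read numbers and intervals may be too narrow. The cause was not tested in any change below. The log2 ratio of the members' median to the median entry was 0.21 in CPM. It was -0.15 with a minimum of 100 counts for members and entries, and 1.02 per kilobase of longest transcript, 0.95 of all exons and 1.31 of principal transcript. The share of members above the median entry was 59.0% and became 43.8%, 75.6%, 76.9% and 74.4% under the same 4 settings. The large over small ratio was 0.07 (log2) in CPM, -0.022 per kilobase of longest transcript, 0.49 of all exons and 0.51 of principal transcript. The ratio of genes with to genes without a bacterial counterpart was 0.66, and 0.48 with classes corrected by homology, 0.46 per kilobase of longest transcript and 0.25 of all exons. The principal-transcript scale, and all exons for the last ratio, were added after seeing the data. Other totals cancel out of the ratio to the median entry and of the share above it, so they could not change either. With a minimum of 10 counts for members, the ratio to the median entry was 0.27, large over small 0.05 and bacterial counterpart over none 0.55. Leaving out genes with shared windows, genes with exon overlap or the highest gene gave ratios to the median entry of 0.25, 0.21 and 0.20. Under these settings the share above the median entry was between 55% and 61.4%. Without genes with shared windows, large over small was 0.08. The alternatives for the comparison of media (other size factors, pseudocounts and minimum counts) were not run, since that comparison was not made. No paired analysis was possible because only 1 of the 2 value columns could be tied to a library.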

Other observations

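The 78 genes lie on 17 chromosomes in GRCm38, with 11 on chromosome 11, 8 on chromosome 17 and 7 on chromosome 6, and none on X or Y. A pair of members adjoin each other: Mrpl46 (chr7:78775236-78783531, minus strand) and Mrps11 (chr7:78783119-78792989, plus strand) overlap at their starts, with 12.2% and 7.97% of their exonic bases in exons of the other. Mrpl46 belongs to the central protuberance of the large subunit and Mrps11 to the platform of the small one. They stood at 18.8 and 26.9 CPM per kilobase (21.4 CPM, 19.4 to 23.4, and 28.4 CPM, 26.2 to 30.8). Their overlap is longer than the limit of 200 bases used for head-to-head neighbours, so they are not among those counted in the report. Mrpl43, also a large-subunit gene, overlaps Twnk, which encodes the helicase of mitochondrial DNA, over 33.4% of its exonic bases, and stood at 78.2 CPM (74.5 to 82.1). These genes were picked after their values and positions had been seen.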
